A study of Mus musculus with 6 samples.

Results

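The genes described here encode enzymes that oxidise methylated cytosine or excise the products, enzymes that make a compound this oxidation uses, and APOBEC deaminases. They are the 3 TET genes Tet1, Tet2 and Tet3, the thymine DNA glycosylase gene Tdg, the cytidine deaminase genes Apobec1, Apobec2 and Apobec3, and the isocitrate dehydrogenase genes Idh1 and Idh2. Members were the probe sets whose only gene symbol in the platform annotation was one of these 9 genes, which gave 15 of the 45037 probe sets tested, for 8 of the 9 genes. Tdg had no probe set of its own, because its 3 probe sets are also annotated to other symbols, and it is not analysed here. The cells were C2C12, an established mouse myoblast line that divides as myoblasts and can differentiate into contracting muscle cells. They were seeded at 1500 cells per square centimetre, grown for 24 hours, and then kept for 3 days in medium with 10% newborn calf serum, either untreated (3 arrays) or with 10 µM 5-azacytidine (5AC, 3 arrays). Day 3 total RNA of these subconfluent cells went onto whole-genome Affymetrix mouse arrays, which read each transcript through 1 or more probe sets, groups of short probes summarised to 1 intensity.

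TET proteins are dioxygenases that oxidise 5-methylcytosine in DNA to 5-hydroxymethylcytosine and further products, using 2-oxoglutarate, oxygen and iron. TDG excises the most oxidised products and mispaired thymine, and base excision repair then restores an unmodified cytosine. The APOBEC family holds deaminases that turn cytosine into uracil: Apobec1 edits apolipoprotein B mRNA, Apobec3 restricts retroviruses, and Apobec2, found mainly in heart and skeletal muscle, has no settled substrate. Idh1, in the cytosol and peroxisomes, and Idh2, in mitochondria, make 2-oxoglutarate and NADPH from isocitrate. 5AC is a cytidine analogue that traps DNA methyltransferases once it is built into DNA, so that methylation marks are lost as cells divide. Methylation and enzyme activity were not measured; every value here is a level of RNA.

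Because CpG sites are where DNA methyltransferases mainly act, the 250 bases before the annotated start of the genes with the largest changes are shown first, with each CpG in capitals. The sequences are from RefSeq, build GRCm38.p6, on the minus strand for all of them, and the letters show where CpG sites lie, not whether they carry methyl groups. Apobec2 had fewer CpG than the median window, whereas Idh1, for which RefSeq lists a pair of starts, and Idh2 had many.
Apobec2, chr17:48432729-48432978: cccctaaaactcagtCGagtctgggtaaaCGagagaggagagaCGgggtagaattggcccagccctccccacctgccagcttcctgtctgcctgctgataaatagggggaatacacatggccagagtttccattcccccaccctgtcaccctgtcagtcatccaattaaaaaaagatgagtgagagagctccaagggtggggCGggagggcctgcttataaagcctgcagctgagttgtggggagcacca
Idh1, upstream start, chr1:65186480-65186729: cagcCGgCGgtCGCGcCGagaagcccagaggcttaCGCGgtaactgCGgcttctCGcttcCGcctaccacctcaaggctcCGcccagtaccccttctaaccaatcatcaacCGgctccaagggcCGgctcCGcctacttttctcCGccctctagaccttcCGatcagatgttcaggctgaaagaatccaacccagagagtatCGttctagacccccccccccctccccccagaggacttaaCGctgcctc
Idh1, downstream start, chr1:65179143-65179392: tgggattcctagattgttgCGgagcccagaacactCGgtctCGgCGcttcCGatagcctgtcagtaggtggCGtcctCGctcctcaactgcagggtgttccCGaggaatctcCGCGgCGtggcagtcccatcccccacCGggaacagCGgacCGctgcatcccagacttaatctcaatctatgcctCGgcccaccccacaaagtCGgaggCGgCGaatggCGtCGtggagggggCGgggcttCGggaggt
Idh2, chr7:80115351-80115600: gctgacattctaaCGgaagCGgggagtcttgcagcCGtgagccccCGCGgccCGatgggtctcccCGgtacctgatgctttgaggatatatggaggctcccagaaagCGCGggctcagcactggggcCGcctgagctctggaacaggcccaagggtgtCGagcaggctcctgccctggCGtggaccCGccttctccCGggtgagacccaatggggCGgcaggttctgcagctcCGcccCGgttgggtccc

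The Apobec2 window held 4 CpG, the Idh1 windows 18 and 22 and the Idh2 window 17, while the median over 32851 RefSeq promoter windows of the same length was 6, with quartiles of 2 and 16. Apobec1 had 7 CpG, Apobec3 12 and 3 at its pair of starts, Tet1 15, Tet3 17 and Tet2 51, more than 99.9% of the windows. The Apobec2 window also held 3 copies of CANNTG, the E-box letters, which 66.2% of windows carry at least once. It held 1 match to TATAAA, found in 12.4%. The Apobec3 window with 3 CpG had the same counts of both motifs, and the Apobec1 window had 2 and 1. CANNTG was also present once in each Idh1 window and in the Tet3 window. GGGCGG was present once in the Apobec2 window, once or more in each Idh1 window and 2 times in the Idh2 window. The Tet1, Tet2 and Tet3 windows each held it once, and those of Apobec1 and Apobec3 did not hold it. Over all windows 32.7% had a match. Both strands were searched for each motif, a match to CANNTG reads alike on either strand, and GGGCGG matches may lie within a CpG-rich run. These matches describe letters in the windows only.

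The array medians of the deposited intensities ran from 20.3 to 21.0, and arrays correlated at 0.965 to 0.971 inside a group and at 0.949 to 0.954 across groups (log2 scale). The number of arrays, 3 in each group, limits the precision. Nothing in the labels says that replicates came from separate cultures, and p-values therefore cover the spread of these arrays alone, possibly a technical one. Myoblast markers were present in both groups: Myod1 had a mean intensity of 508 untreated and 349 with 5AC, and Des, the muscle intermediate filament gene, of 1041 and 887. The largest falls among the myoblast markers were of Msc, from 171 to 52.0, and Itga7, from 583 to 252. Of 6 such markers 4 were lower and 0 higher with 5AC (5 and 0 at an unadjusted p under 0.05 in limma). Of 4 fibroblast markers 2 were lower and 0 higher, and of 6 epithelial markers 2 were higher (the keratin genes Krt8 and Krt18) and 0 lower. The counts for these last lists were the same at an unadjusted p under 0.05. Mean intensity went from 15.9 to 1991 for Krt8 and from 8.14 to 711 for Krt18.

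Changes are given as log2 change, 5AC minus untreated, of log2(intensity + 1), with the standard error and the adjusted p of limma after Benjamini-Hochberg adjustment over all 45037 probe sets and a threshold of 0.05. Of the 15 probe sets, 1 was higher with 5AC (Apobec2), 4 were lower (Idh1 with both of its probe sets, Idh2 and Apobec1) and 10 did not pass. That is 33.3% of them, against 16.9% of all probe sets tested (8.15% higher and 8.75% lower). With any single array left out, 8.51% to 12.1% of all probe sets passed. Of the 8 whose mean intensity lay at or above the median probe set, 20.7, 4 passed, against 29.6% of all probe sets that bright, so the share among the genes described is read only as a count. The other 7 were dim, and for them a change on the log scale depends on the number added before the log, so the change with 16 added is given beside it. In 7 of the 15 the arrays of the groups did not overlap, which held for 36.8% of all probe sets.

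**Figure D1:**
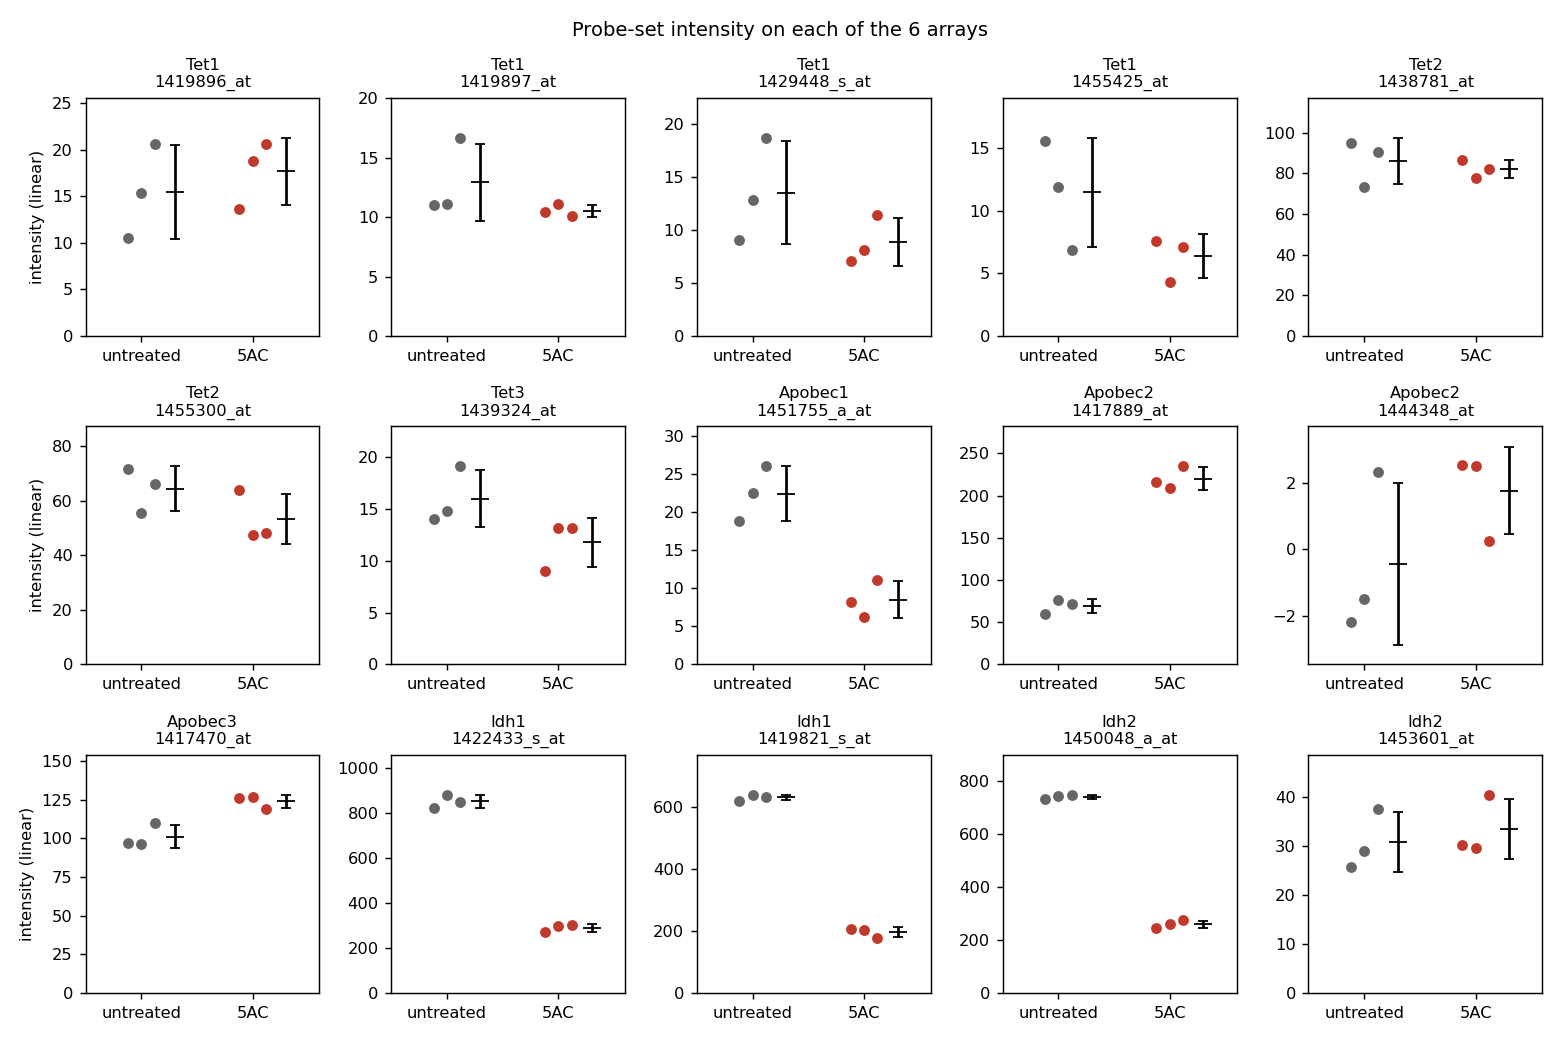
Each panel plots 1 probe set; the y axis is the deposited intensity on a linear scale, points are single arrays (grey untreated, red 5AC), and the black bars are the mean and SD of 3 arrays. Idh1 and the 1450048_a_at probe set of Idh2 lie far lower with 5AC and the 1417889_at probe set of Apobec2 far higher, while the Tet1 and Tet2 panels overlap between groups.

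RNA of the TET genes showed no change past the threshold on any of 7 probe sets. Tet2, the TET gene whose signal was well over the table's median, had intensities of 94.8, 73.4 and 90.6 untreated and 86.4, 77.9 and 82.0 with 5AC on its brighter probe set, 1438781_at. The treated arrays lay within the range of the untreated ones. The log2 change was -0.06 ± 0.12 (SE, n = 3 each, limma adjusted p = 0.791), with a 95% interval of -0.37 to 0.25, which leaves room for small changes either way. The other Tet2 probe set, 1455300_at, read 71.8, 55.5 and 66.0 untreated and 63.8, 47.6 and 48.3 with 5AC. These groups overlapped as well, and the change of -0.28 ± 0.16 did not pass (limma adjusted p = 0.338, interval -0.69 to 0.14).

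Tet1, which in mouse is best known from embryonic stem cells and germ cells, was near background on each of its 4 probe sets, with group means from 6.36 to 17.6, all below the table's median. Its brightest probe set, 1419896_at, read 10.5, 15.3 and 20.6 untreated and 13.6, 18.8 and 20.6 with 5AC. The log2 changes of the 4 probe sets were 0.21, -0.26, -0.53 and -0.73 (0.10, -0.12, -0.24 and -0.29 with 16 added), and limma adjusted p ran from 0.233 to 0.693. All 4 overlapped between the groups. Differences between the Tet1 probe sets in log2 change, brightest minus other, were 0.46, 0.74 and 0.93. The smallest exact permutation p among them was 0.1, two-sided, which is the least that 3 against 3 arrays allow, and 0.35 after adjustment over 7 pairs of probe sets. Whether C2C12 cells hold any Tet1 RNA cannot be read from values this low, since detection calls were not used here.

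Tet3, the TET enzyme of the oocyte and zygote that is also made in many somatic tissues, had 1 probe set, 1439324_at, and was dim too. It read 14.0, 14.8 and 19.1 untreated and 9.04, 13.1 and 13.1 with 5AC. All treated arrays were below all untreated ones, by a narrow margin, and the log2 change of -0.42 ± 0.19 (-0.20 with 16 added) did not pass (limma adjusted p = 0.226, interval -0.91 to 0.07).

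The deaminase genes went different ways. Apobec2 rose on its brighter probe set, 1417889_at, from 59.7, 76.4 and 71.9 untreated to 216, 209 and 235 with 5AC. Every treated array was far above every untreated array. The means were 69.3 ± 8.62 and 220.3 ± 13.5 (SD, n = 3 each), a 3.16-fold rise and a log2 change of 1.66 ± 0.12 (SE, limma adjusted p = 0.00235). The rise lay between 1.56 and 1.73 with any single array left out and stayed past the threshold. The other Apobec2 probe set, 1444348_at, had values between -2.20 and 2.54 on the 6 arrays, at the floor of the table, so it carries no reading of the gene in either group.

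Apobec2 is a muscle gene, and RNA of differentiated muscle moved with it. Of 8 differentiated skeletal muscle markers, 7 were higher with 5AC and 0 lower (also 0 lower at an unadjusted p under 0.05), and their summed intensity was 1468 to 1895 on untreated and 5395 to 5976 on treated arrays. None of the 8 was below the table's median. The myogenic factor Myog rose by 1.47 ± 0.11, embryonic myosin heavy chain Myh3 by 2.53 ± 0.15 and the fusion protein gene Mymk by 1.57 ± 0.09, while muscle creatine kinase Ckm had a change of 0.60 ± 0.29 that did not pass (limma adjusted p = 0.00267, 0.00168, 0.00171 and 0.251). The part of more differentiated cells in the Apobec2 result was not tested, and in such bulk RNA a change in the number of cells of a type and a change in RNA per cell cannot be told apart.

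Apobec1 fell, from 18.8, 22.5 and 26.0 untreated to 8.18, 6.27 and 11.1 with 5AC on its only probe set, 1451755_a_at. The groups did not overlap. The log2 change was -1.32 ± 0.23 (SE, n = 3 each, limma adjusted p = 0.0187), but these values straddle the table's median and with 16 added the change was -0.65 (adjusted p = 0.00563). The call was lost without untreated replicate 2, untreated replicate 3, 5AC replicate 1 or 5AC replicate 2, with adjusted p of 0.05 to 0.0704 and changes of -1.14 to -1.31 in those fits.

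Apobec3 was slightly higher with 5AC on its 1 probe set, 1417470_at, but did not pass. It read 97.0, 96.4 and 109.7 untreated and 126, 127 and 119 with 5AC. All treated arrays were above all untreated ones. The log2 change was 0.30 ± 0.09 (SE, limma adjusted p = 0.0791, 95% interval 0.08 to 0.51), and it passed when 16 was added before the log (0.26, adjusted p = 0.0432) and under 3 other settings (adjusted p = 0.0171 to 0.0382). Apobec1 and Apobec3 are abundant in some leukocytes. Of 11 macrophage and other leukocyte markers 1 was higher, Fcer1g, and 0 lower (0 also at an unadjusted p under 0.05). Their summed intensity was 278 to 283 untreated and 295 to 317 with 5AC. Of the 11, 5 had a mean below the table's median, among them the pan-leukocyte gene Ptprc with 12.7 and 10.3 and the T cell gene Cd3e with 14.2 and 12.8. The other 6 were above it by their mean over all arrays. Among these, Fcer1g, with 5.93 ± 2.13 untreated and 47.8 ± 15.2 with 5AC, and Laptm5, with 20.5 and 25.7, were below it untreated. The mean of Fcer1g rose by more than the summed intensity did, so the sum of the other markers was not higher with 5AC. Those markers went both ways, and none of them passed the threshold. The brightest were Cd14 with 80.6 untreated and 68.5 with 5AC and Csf1r with 63.7 and 56.1, neither past the threshold. The part of such cells in the values of Apobec1 and Apobec3 was not tested.

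The dehydrogenase genes both fell, to between 31.0% and 35.0% of the untreated level on the probe sets that passed. A dimmer Idh2 probe set, described below, did not pass. Idh1 read 821, 881 and 849 untreated and 270.5, 296 and 303 with 5AC on probe set 1422433_s_at. Its other probe set, 1419821_s_at, read 621, 640 and 632 untreated and 207, 203 and 178 with 5AC. On both, the spread within a group was small beside the gap between groups. The mean with 5AC was 34.1% of the untreated mean on the first and 31.0% on the other, and the log2 changes were -1.55 ± 0.08 and -1.69 ± 0.09 (SE, n = 3 each, limma adjusted p = 0.00139 for both). The difference between these changes, 0.14, was within the spread between arrays (exact permutation test, two-sided p = 0.4). In Affymetrix naming the ending s marks a probe set whose probes may match transcripts of more than 1 gene. The annotation used here lists only Idh1 for both. A Tet1 probe set, 1429448_s_at, has the same ending, as do some probe sets of genes named below, those of Idh3b and Gpt2 among them.

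Idh2 read 734, 746 and 748 untreated and 247, 259 and 274 with 5AC on probe set 1450048_a_at. The untreated arrays lay within a few percent of each other and all 3 treated arrays were far below them. The means were 742 ± 7.63 and 260.1 ± 13.7 (SD, n = 3 each), 35.0% of the untreated level, with a log2 change of -1.51 ± 0.07 (SE, limma adjusted p = 0.00126). With any single array left out the change stayed between -1.47 and -1.55 for Idh2 and between -1.50 and -1.58 for the brighter Idh1 probe set, past the threshold each time. The 95% intervals, -1.69 to -1.33 for Idh2 and -1.75 to -1.35 for Idh1, overlapped almost wholly.

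The second Idh2 probe set did not follow. It read 25.7, 29.0 and 37.5 untreated and 30.2, 29.6 and 40.4 with 5AC on 1453601_at, a change of 0.12 ± 0.19 (limma adjusted p = 0.744). The groups overlapped. The difference between the Idh2 probe sets in log2 change was -1.63, with an exact permutation p of 0.1, two-sided, the least that this design allows (0.35 adjusted over 7 pairs). The annotation pairs this probe set with another sequence record than the brighter one, and where it lies in the gene is not given in the sources used here.

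**Figure D2:**
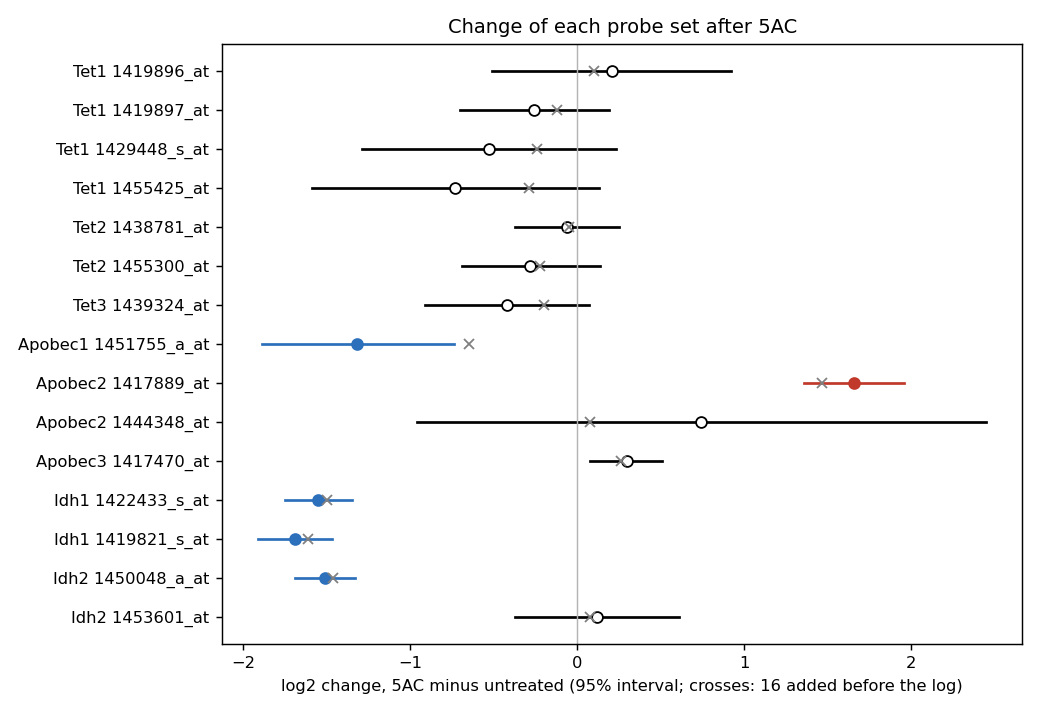
The x axis is the log2 change, 5AC minus untreated, of each of the 15 probe sets named on the y axis; lines are 95% intervals, filled red and blue points passed the threshold as higher and lower, open points did not, and grey crosses are the change with 16 added before the log. The 3 Idh probe sets that passed lie between -1.51 and -1.69, Apobec2 at 1.66, and the 7 TET intervals all include 0.

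The genes whose 6-array pattern was most like that of Idh1, Idh2, Apobec2 and Apobec1 were sought among genes with a mean at or above the table's median, 11323 or 11324 in number, by the root mean square difference of log2 values centred on their mean. Idh1 and Idh2 were each the second nearest to the other, at 0.0354. The nearest to both was Fdps, which encodes farnesyl diphosphate synthase of the mevalonate pathway, at 0.0320 from Idh1 and 0.0245 from Idh2; it went from 1401 ± 31.4 to 486 ± 29.8 (log2 change -1.53 ± 0.08). The third was Stmn2, a neuronal stathmin, for Idh1 and Olfml2b for Idh2, with changes of -1.55 and -1.54. Nearest to Apobec2 were Gxylt2, a xylosyltransferase gene, Hjv, which encodes the BMP co-receptor hemojuvelin, and Mymk, with changes of 1.67, 1.70 and 1.57 at 0.0511, 0.0714 and 0.0820. For Apobec1 they were Efcab11, Haghl and Oscp1, with changes of -1.45, -1.41 and -1.21. Over 6 arrays in 2 groups such likeness is set mainly by the size of the change between groups, and it is given as a description.

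**Figure D3:**
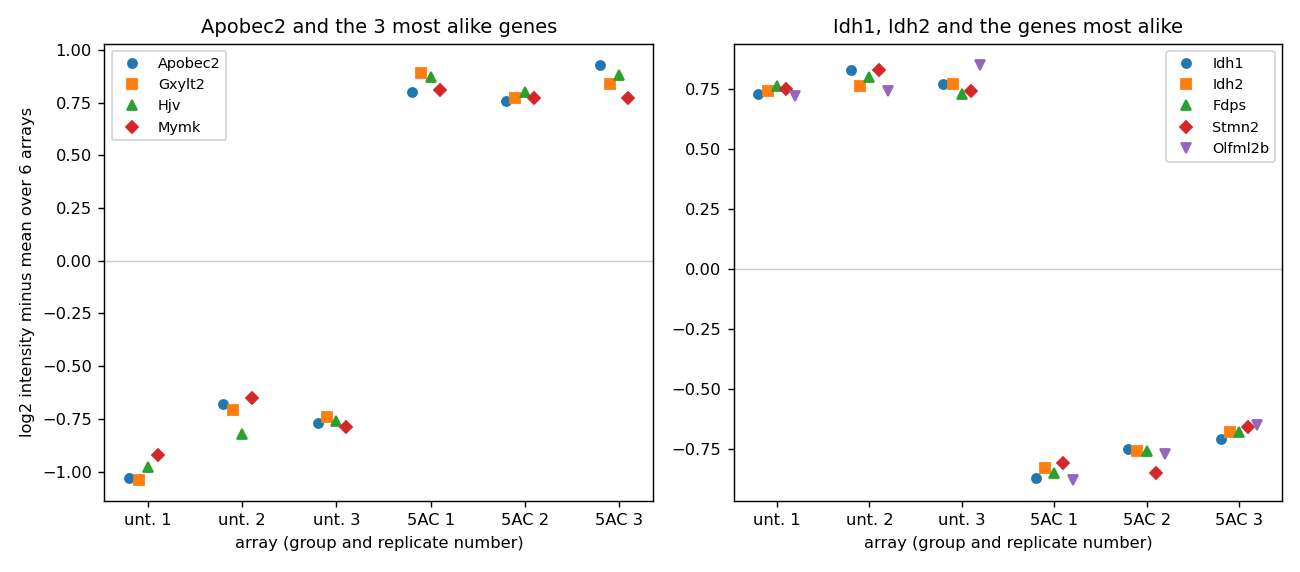
The y axes are log2 intensity minus the gene's mean over the 6 arrays and the x axes the arrays by group and replicate number; each symbol is 1 gene by its brightest probe set. Apobec2 lies with Gxylt2, Hjv and Mymk, and Idh1 and Idh2 lie with Fdps, Stmn2 and Olfml2b.

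Other genes of the same pathways were counted by the brightest probe set of each gene, beside 22.4% of all 18193 genes past the threshold, 11.6% higher and 10.8% lower. Most genes in each list lay at or above the table's median, and 29.6% of all probe sets that bright passed. The share over all genes, which includes dim ones, may therefore be a low background for these lists. In a list of enzymes that supply NADPH, as Idh1 and Idh2 do, the genes that passed were lower: of 12 measured, 6 were lower and 0 higher (8 and 0 at an unadjusted p under 0.05 in limma), with a median log2 change of -0.37 against 0.01 over all genes. The list also holds Mthfd1l, a mitochondrial formyltetrahydrofolate synthetase that has no dehydrogenase activity and makes no NADPH. Without it, a change made after the data were seen, 5 of 11 were lower and 0 higher (7 and 0 at an unadjusted p under 0.05), with a median of -0.33. The 3 largest falls in the list were of mitochondrial folate enzymes, Mthfd1l among them. Mthfd2, also a mitochondrial folate enzyme of the list, did not follow. It read 509 ± 32.5 untreated and 488 ± 32.6 with 5AC (log2 change -0.06 ± 0.09, limma adjusted p = 0.719). Mthfd1l fell from 595 ± 39.3 to 241 ± 7.49 (log2 change -1.30 ± 0.08), Mthfd2l from 297 ± 10.8 to 169 ± 5.66 (-0.81 ± 0.07) and Aldh1l2 from 289 ± 20.8 to 186 ± 5.95 (-0.63 ± 0.08), with limma adjusted p of 0.00183, 0.00344 and 0.00911. The dimmer Mthfd2l probe sets were at -0.69, -0.86 and -0.31, the last of them not past the threshold (limma adjusted p = 0.35). With single arrays left out, 4 or 5 of the 12 were lower, and 3 or 4 of the 11.

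The tricarboxylic acid cycle holds the NAD-linked isocitrate dehydrogenase Idh3. Of 16 enzymes measured, 13 did not pass, 2 were higher and 1 was lower (4 and 4 at an unadjusted p under 0.05 in limma). The median log2 change of 0.01 is over genes that went both ways, from -0.30 to 0.34. The one that fell was Idh3g, a regulatory subunit of Idh3, from 1054 ± 6.52 to 858 ± 22.0 (-0.30 ± 0.06, limma adjusted p = 0.0356). Its partners Idh3a and Idh3b had changes of 0.05 ± 0.07 and 0.19 ± 0.06 that did not pass (adjusted p = 0.671 and 0.114). Dlst, of the 2-oxoglutarate dehydrogenase complex, rose by 0.34 ± 0.06 and Sucla2, of succinyl-CoA synthetase, by 0.28 ± 0.07 (adjusted p = 0.0234 and 0.0486). Their dimmer probe sets did not pass: those of Dlst were at -0.31, 0 and 0.04 and those of Sucla2 at -0.38 and 0.27 (adjusted p = 0.242 to 1), while the other probe set of Idh3g was at -0.27 (adjusted p = 0.0567). All 3 calls were lost when any single array was left out.

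In the metabolism of 2-oxoglutarate and 2-hydroxyglutarate outside the cycle, 4 of 12 genes were lower and 1 higher, with a median log2 change of -0.10. Slc25a11, the mitochondrial 2-oxoglutarate carrier, fell from 492 ± 11.0 to 323 ± 10.7 (-0.60 ± 0.07) and Phgdh, the first enzyme of serine synthesis, from 1978 ± 57.6 to 1356 ± 49.4 (-0.54 ± 0.07). Gpt2, the mitochondrial alanine transaminase, rose from 199 ± 9.82 to 299 ± 9.58 (0.58 ± 0.07; limma adjusted p = 0.00601, 0.00857 and 0.00847). With any single array left out 2 of the 12 were lower. D2hgdh, which oxidises 2-hydroxyglutarate, had a change of 0.07 ± 0.14 that did not pass (adjusted p = 0.806).

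Genes that partner TET proteins or read their products went both ways: of 11 measured, 2 were higher and 2 lower, with a median log2 change of 0.06. Cxxc5, a CXXC zinc finger protein related to the Tet2 regulator Cxxc4, fell from 263 ± 29.4 to 103 ± 12.9 (-1.35 ± 0.14), also on its other probe set (-0.67). Gadd45a, a stress-induced adaptor linked to DNA demethylation and a p53 target, rose from 187 ± 8.37 to 380.2 ± 15.9 (1.02 ± 0.08), and Uhrf2, a reader of 5-hydroxymethylcytosine, by 0.62 ± 0.11 (limma adjusted p = 0.00499, 0.00250 and 0.0221). The call of Uhrf2 was kept in 1 of 6 fits with an array left out, and its dimmer probe set gave a change of 0. Ogt, the sugar transferase that binds TET proteins, had a log2 change of 0 ± 0.07 (adjusted p = 0.984).

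The base excision repair list holds enzymes that act after TDG and also other glycosylases, which remove bases as TDG does. Of its 12 genes measured, 3 were lower and 0 higher (5 and 2 at an unadjusted p under 0.05), with a median log2 change of -0.26. Lig1, the replicative DNA ligase, fell by 0.81 on the log2 scale, Parp1, the strand-break sensor, by 0.50 and Fen1, the flap endonuclease, by 0.42 (limma adjusted p = 0.00619, 0.0173 and 0.0282). Without single arrays 1 or 2 of the 12 were lower; Lig1 kept its call in all 6 such fits, Parp1 in 2 and Fen1 in 0. The glycosylase genes Mbd4, which removes thymine mispaired at CpG, and Smug1 had changes of -0.29 ± 0.20 and -0.04 ± 0.07 that did not pass (adjusted p = 0.406 and 0.773). Of 9 other nucleic acid deaminases and APOBEC1 cofactors, 2 were higher and 0 lower (2 and 0 at an unadjusted p under 0.05). Adat2, a tRNA adenosine deaminase, rose by 0.46 ± 0.09 and Adar, which edits adenosine in double-stranded RNA, by 0.40 ± 0.09 (adjusted p = 0.0223 and 0.0430), and both calls were lost without any single array. The dimmer probe sets of Adar were at -0.10 and -0.15 and did not pass (adjusted p = 0.839 and 0.584), and with a gene called by any probe set, in the direction of their median, the list had 1 higher and 2 lower. The APOBEC1 cofactor A1cf was dim, with means of 16.4 and 17.5.

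**Figure D4:**
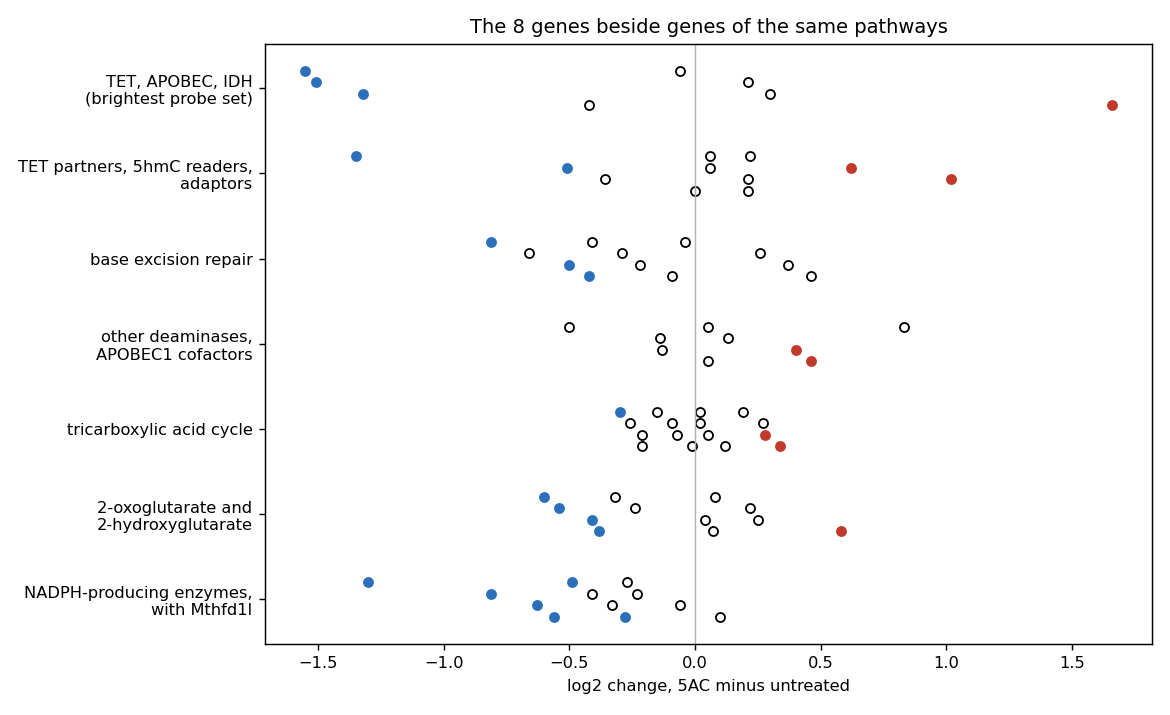
The x axis is the log2 change, 5AC minus untreated, by the brightest probe set of each gene; each row of points is 1 list, with filled red and blue points past the threshold as higher and lower and open points not past it, and the vertical spread within a row carries no meaning. Idh1 and Idh2 lie at -1.55 and -1.51, left of all points of the tricarboxylic acid cycle, whose called genes lie between -0.30 and 0.34.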

How the data were processed

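RNA was measured on 6 arrays, 3 untreated and 3 with 5AC, with groups from their titles. A single table was deposited by the authors, of linear intensity values, 1 per probe set and array. The submitters' processing notes name GCOS 1.4 and R 2.4.1 without saying what each did; how background, summarization and normalization were handled is not given in the sources used here. On each array 2.42% to 2.60% of the values were below 0, and these were set to 0 before log2(intensity + 1). Of 45101 probe sets, 64 controls were left out. The platform annotation paired 34945 of the rest with 1 symbol, 932 with several and 9160 with none. Groups were compared with limma 3.58.1 (lmFit, eBayes; R 4.3.3; prior degrees of freedom 1.23), two-sided, and the procedure was tested on simulated data. In 6 pathway lists 79 genes were listed and 72 measured, and 5 marker lists were read for cell types. The 9 genes, the lists and the rules were chosen with earlier results of these data known. All members are named, with up to 3 genes of largest change past the threshold per list and the 3 genes most alike in pattern for each member changed at least 2-fold; other list genes named were chosen after their values were seen. Alternatives were an offset of 16, quantile normalization, median centring, a replicate block, dim probe sets left out, 1 probe set per gene (for lists, a call by any probe set), an intensity trend, robust moderation and each array left out.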

Additional observations from a re-analysis of the deposited data

How the results depend on the processing

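Of 196 alternative fits of the 15 probe sets, 180 kept direction and side of the threshold, 9 lost a call, 4 gained one and 3 turned sign. The sign turned only for changes near 0: Tet1 1419896_at was at -0.03 and Tet2 1438781_at at 0.01 without untreated replicate 1, and Idh2 1453601_at at -0.02 without 5AC replicate 3, in ranges of -0.03 to 0.43, -0.17 to 0.01 and -0.02 to 0.27 over the arrays left out. The calls of Apobec2, Idh1 and Idh2 held under every alternative tried except the replicate block. The labels number the replicates but do not say whether same-numbered arrays were paired. Same-numbered arrays deviated from their group means with correlations of -0.0591, 0.0301 and 0.0127. These correlations describe the values and cannot show how the cultures were set up. With the replicate block, which leaves fewer residual degrees of freedom, limma called 0 probe sets higher and 0 lower over the whole table (12060 at an unadjusted p under 0.05, 7 of them among the 15), and 0 in either direction among the 15 and in each list. Adjusted p there was 0.0548 for Apobec2, Idh1 and Idh2, the smallest in the table, and 0.0638 for Apobec1. Apobec3 passed with 16 added, without dim probe sets, with 1 probe set per gene and with an intensity trend, so that 2 members were higher in each of these. With 1 probe set per gene, where fewer features are tested, 2517 were lower over the table.

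Among the pathway lists, leaving out dim probe sets gave 4 higher TET partners, 2 higher and 5 lower repair genes, 4 higher and 4 lower cycle enzymes and 2 higher 2-oxoglutarate genes; the intensity trend gave the same except for 3 higher 2-oxoglutarate genes. With 16 added there were 2 higher repair genes and 2 lower cycle enzymes. Quantile normalization gave 1 higher repair gene, and median centring and robust moderation 1 higher cycle enzyme each. A call by any probe set, in the direction of the gene's median probe set, gave 1 higher repair gene, 1 higher and 2 lower deaminases and cofactors, and 3 lower cycle enzymes. The cause was not tested.

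With single arrays left out, 1681 to 2859 probe sets were higher and 2058 to 2592 lower over the table, 1 of the 15 was higher and 3 to 4 lower. TET partners gave 1 to 2 in each direction, repair genes 0 to 1 higher and 1 to 2 lower, deaminases and cofactors 0, cycle enzymes 0 in each direction, 2-oxoglutarate genes 1 higher and 2 lower, and NADPH-producing enzymes, with Mthfd1l, 4 to 5 lower. Signal near background limits Tet1, Tet3, Apobec1 and the dimmer probe set of Apobec2.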
